A study of Mus musculus with 24 samples.

Results

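The genes described here are those of the cytosolic ribosomal proteins, followed in primary mouse cortical neurons of 2 genotypes with and without brain-derived neurotrophic factor (BDNF). Protein-coding genes were taken by symbol: Rpl or Rps followed by a number, with or without a final a, x or l, and in addition Rplp0, Rplp1, Rplp2 and Rpsa. This gave 80 of the 45792 genes in the count table, 31 of the small subunit and 49 of the large subunit. Another 2 symbols of that form, Rps4l and Rpl6l, are annotated as pseudogenes and were left out. Of the 80 genes, 79 passed the filter on low counts, and Rpl10l had no count in any library.

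Neurons came from wild-type (WT) embryos and from embryos labelled as H2BE-KO/mCherry-KI (KO), in which the histone variant H2BE is knocked out and an mCherry reporter knocked in. They were taken at E16.5, kept in culture for 12 days, and collected untreated (control) or after BDNF for 30 min or 24 h. Each of the 6 groups had 4 libraries, 24 in all, and all comparisons concern these cultures of embryonic neurons. The sample descriptions give each library a code that the control, 30 min and 24 h libraries of 1 replicate number share, WT2C to WT2F for WT replicates 1 to 4 and KO2A to KO2D for KO replicates 1 to 4. What the code stands for is not stated. Libraries with 1 code are called a culture here, and if a code marks anything less than a separate culture, the p-values measure only the spread between these samples.

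Each cytosolic ribosome carries a single copy of most of its proteins, so their genes are usually expressed together at high and similar levels. Many of their mRNAs start with a 5′ terminal oligopyrimidine tract (TOP), a C followed by a run of pyrimidines, through which the mTORC1 pathway controls their translation. In neurons BDNF, acting through its receptor TrkB, is known to raise protein synthesis, and ribosomal protein mRNAs are among those carried into dendrites and axons.

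Counts per library ran from 19780486 to 62135270. The summed neuron markers (Map2, Rbfox3, Tubb3, Snap25, Syt1, Slc17a7, Gad1, Gad2) stood at 6090 to 8064 CPM (counts scaled to library size) in every library. The summed astrocyte markers were at 420 to 615 CPM in WT and 202 to 312 CPM in KO without culture KO2D, and in KO2D they ran from 177 to 464 CPM, with most of the sum in Slc1a2. Summed microglia markers reached at most 4.97 CPM, with P2ry12 at 0 in 14 of the 24 libraries, endothelial markers 4.02 CPM, fibroblast markers 53.2 CPM, markers of dividing progenitors 49.9 CPM and those of the oligodendrocyte lineage 88.1 CPM. In bulk RNA, fewer cells of a type and less RNA per cell cannot be told apart.

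Culture KO2D stood apart from the other KO cultures. Transcripts of the mitochondrial genome held 18.5%, 21.7% and 10.9% of its counts under control, 30 min and 24 h, against 4.20% to 9.34% in the other KO libraries and 4.18% to 6.40% in WT. The library labelled KO 24 h replicate 4, which carries its code, went against that code in other genes. It held 145 CPM of Xist and 66.3 CPM of the Y-linked Ddx3y, whereas the lower of both was at most 8.19 CPM in each of the other 23 libraries. It also held 21.2 CPM of Hist2h2be, the gene of H2BE, against 49.96 to 63.1 CPM in the other KO libraries and 3.15 to 5.83 CPM in WT. The Hist2h2be count was thus higher in KO, and since the part of the gene covered by reads is not given, it separates the genotypes without testing the deletion. Depth was lowest in KO 30 min replicate 3, in which 15320 genes were detected, fewer than in any other library. Results for the KO groups are given with and without KO2D. That culture was set aside because its share of counts in these same genes was high (2.349%, 2.001% and 1.899%). Values without it are thus lower in KO by choice and are not a separate test.

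The starts of some of the genes named below are shown first. The pyrimidine run there is the sequence feature for which these genes are known, and the symbol rule did not use it. Windows of 30 bases, 15 before the start and 15 from it, were read from RefSeq promoters on GRCm38.p6. They are written in the direction of transcription, with the longest run of C and T at the start in capitals. Rpl6 lies at chr5:121204486-121204515 on the plus strand, Rpl18 at chr7:45718056-45718085 on the plus strand and Rps6 at chr4:86857353-86857382 on the minus strand. Rpl15 lies at chr14:18270972-18271001 and Rps15a at chr7:118116133-118116162, both on the minus strand. Rpl39 lies at chrX:37085208-37085237 on the minus strand and its paralogue Rpl39l at chr16:10170213-10170242 on the plus strand.
Rpl6: tggtcaCCTCCCgtcattgcttatagaccg
Rpl18: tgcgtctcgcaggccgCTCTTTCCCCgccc
Rps6: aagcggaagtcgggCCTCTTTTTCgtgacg
Rpl15: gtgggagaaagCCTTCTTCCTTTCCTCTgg
Rps15a: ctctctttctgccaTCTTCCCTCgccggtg
Rpl39: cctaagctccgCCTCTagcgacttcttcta
Rpl39l: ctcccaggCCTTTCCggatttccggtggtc
The run was 17 bases long in Rpl15, 10 in Rps6 and Rpl18, 9 in Rps15a, 7 in Rpl39l, 6 in Rpl6 and 5 in Rpl39. In starts read but not shown it was 18 in Rpl35, 11 in Rpl28, 9 in Rps27 and 4 in Rpl22 and Rpl3l. No RefSeq start was matched for Rpl8. A RefSeq start was matched for 60 of the 80 genes. Counting runs of C and T in any order, on the strand of the gene alone, that reached to within 5 bases of the start, 34 of the 60 (56.7%, 95% exact interval 43.2% to 69.4%) had a run of at least 5 bases. Among all 27025 genes with a start in the same table, 35.1% did. A run of at least 10 bases was present in 17 of the 60 (28.3%) and in 5.82% of all genes. A start that was itself a C followed by 4 pyrimidines was annotated in 13 of the 60 (21.7%) and in 3.01% of all genes. The annotated start can lie a few bases from the one used in neurons, and a match describes the letters only.

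The 80 genes are spread over 19 chromosomes, with 14 on chromosome 7 and 4 on X (Rps4x, Rpl10, Rpl36a and Rpl39). Their transcripts are short, with a median of 774.5 bases and a range of 345 to 5130 bases. Per kilobase of transcript, and averaged over all libraries, the highest level was that of Rpl41, the smallest of the proteins, at 786.5 CPM per kb. Rplp1 (623), Rps15 (473), Rps2 (465) and Rps29 (420 CPM per kb) followed, and the median of the tested genes was 213 CPM per kb. Below all of these stood Rpl3l, the muscle paralogue of Rpl3, at 0.319 CPM per kb and Rpl39l, the paralogue of Rpl39 best known from male germ cells, at 0.726 CPM per kb. Rpl24, which forms a bridge between the subunits, was listed at 7.10 CPM per kb. Of the 50-base stretches in its transcript, 81.8% also occur in the transcript of another gene. Such sharing was the rule: 77 of the 80 genes shared at least 1 stretch of 50 bases with another gene, and 42 shared over 50% of theirs. The treatment of reads that match several places is not stated, so levels between genes are uncertain where sequence is shared. The 259 named pseudogenes of these genes held 0.00321% to 0.00788% of the counts.

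In WT neurons, the ribosomal protein genes held 1.296%, 1.365%, 1.192% and 1.383% of all counts in the 4 control libraries. After 30 min of BDNF the shares were 1.365%, 1.397%, 1.243% and 1.31%, and after 24 h 1.569%, 1.566%, 1.332% and 1.47%. The 24 h share was above that of the same culture's control in 4 of 4 WT cultures, although the range at 24 h overlapped that of the controls. The means were 1.31% ± 0.087 (SD, n = 4), 1.33% ± 0.068 (SD, n = 4) and 1.48% ± 0.11 (SD, n = 4). In KO neurons the control shares were 1.198%, 1.178%, 1.162% and 2.349%, the last in culture KO2D. After 30 min they were 1.157%, 1.116%, 1.545% and 2.001%, and after 24 h 1.331%, 1.356%, 1.296% and 1.899%, again in the order of the cultures. Without KO2D the KO means were 1.18% ± 0.018 (SD, n = 3), 1.27% ± 0.24 (SD, n = 3) and 1.33% ± 0.030 (SD, n = 3). With it they were 1.47% ± 0.59, 1.45% ± 0.41 and 1.47% ± 0.29 (SD, n = 4 each). The 3 other KO control libraries lay below or within the lower end of the WT control range, and KO2D lay above every other library of the study. The counts in small-subunit genes were 0.689 to 0.735 times those in large-subunit genes in WT and 0.668 to 0.728 times in KO without KO2D.

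**Figure D1:**
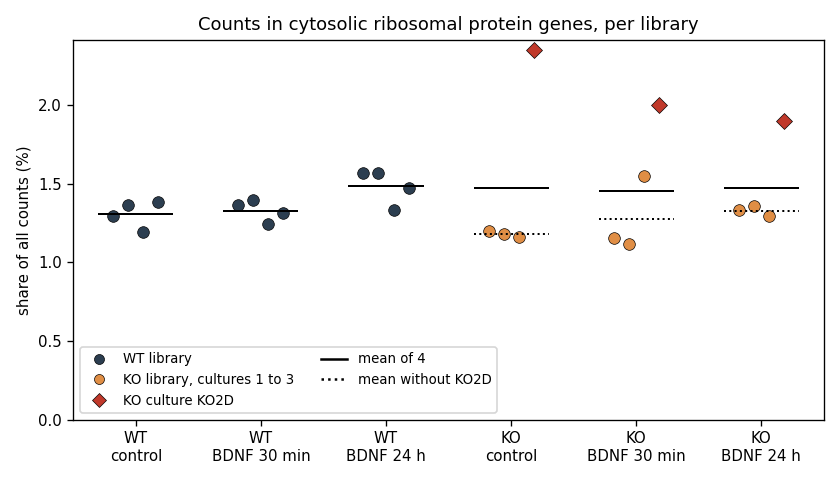
Share of each library's counts in the 80 cytosolic ribosomal protein genes (y axis, percent, from 0) by group (x axis). Points are single libraries, diamonds are culture KO2D, solid lines are means of 4 libraries and dotted lines are KO means without KO2D. The 3 diamonds, at 2.349%, 2.001% and 1.899%, lie above all other points, and the WT 24 h points reach 1.569%.

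BDNF for 24 h in WT neurons was accompanied by a small rise that was shared by most of the ribosomal protein genes. Of the 79 tested genes, 69 had a higher mean and 10 a lower one, with a median log2 fold change of 0.16 (1.12-fold), while the median over all 16777 genes tested was -0.01. In the fit of all 24 libraries, which leaves the culture code out, 3 genes passed and rose, Rpl8, Rpl6 and Rpl18, and none fell, with 7 at an unadjusted p under 0.05. The threshold was a Benjamini-Hochberg adjusted p under 0.05 from edgeR's quasi-likelihood test, which 9.55% of all genes passed as higher, a larger share than 3 of 79. A fit without KO2D called 13 of the 79 as higher and none as lower, beside 14.2% of all genes. With KO 30 min replicate 3 left out as well, 23 were called, all as higher, while 2789 of 17393 genes were called as higher and 32.0% in either direction. The 23 members are a larger share than that of all genes called as higher. The libraries left out held high shares of counts in these genes, so leaving them out can narrow the spread of the members by choice. The count in the 24-library fit fell to 1 without WT control replicate 1, WT control replicate 4 or WT 24 h replicate 2. Markers of cell types moved in the same libraries. Summed oligodendrocyte-lineage markers were at 34.9 to 43.7 CPM in the WT controls and 55.8 to 88.1 CPM at 24 h, with 1 of 6 tested called, Mbp (1.32). Of the 8 neuron markers Rbfox3 (-0.99) and Tubb3 (-0.69) fell, and summed fibroblast markers were at 27.3 to 45.3 CPM and then 13.3 to 19.1 CPM, with 0 of 5 called. The part of these shifts in the rise was not tested.

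Rpl8, at chr15:76904078-76906314, encodes a large-subunit protein next to the site where peptide bonds form. It stood at 212, 223, 226 and 220 CPM in the WT controls, at 210, 222, 224 and 198 CPM after 30 min, and at 266, 290, 284 and 254.6 CPM after 24 h. All 4 libraries at 24 h were above all 4 controls, and those at 30 min were not. Its log2 fold change at 24 h was 0.31 ± 0.08 (SE), with an edgeR adjusted p of 0.00718. Rpl6 (chr5:121204481-121209241), a structural protein of the large subunit, went from 168, 182, 165 and 167 CPM to 218, 248, 212 and 198 CPM. Its groups did not overlap either, and its change was 0.36 ± 0.11 (SE; edgeR adjusted p = 0.0258). Rpl18 (chr7:45715457-45720836), another large-subunit protein, went from 99.8, 104, 114 and 107 CPM to 120, 141, 138 and 132 CPM. All of its 24 h libraries lay above the controls as well, with a change of 0.32 ± 0.10 (SE; edgeR adjusted p = 0.0245). Rpl18 overlaps the antisense gene Sphk2, and the strand setting of the counting is not stated, so reads of both cannot be told apart.

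The groups did not overlap, with all 24 h libraries higher, for 15 of the 79 genes in WT, against 15.5% of all genes in that direction, and for none with all lower, against 15.2%. Beside Rpl8, Rpl6 and Rpl18 these included Rpl3, Rpl4, Rpl7a, Rpl10a, Rpl12, Rpl28, Rps3, Rps6, Rps9, Rps18 and Rps27l. Rps6, whose phosphorylation by S6 kinase is the usual readout of mTORC1 activity, stood at 76.6, 80.6, 65.5 and 66.1 CPM in the controls and at 99.2, 104, 84.7 and 83.9 CPM at 24 h. It was not called in the 24-library fit (0.36 ± 0.17, edgeR adjusted p = 0.146) and was called without KO2D (0.36 ± 0.09, edgeR adjusted p = 0.00598). Without KO2D, the largest rise among called members was that of Rpl12, a protein at the base of the ribosomal stalk, with 0.42 ± 0.11 (edgeR adjusted p = 0.00937), from 190, 207, 178 and 182 CPM to 276, 276, 211 and 248 CPM. In that fit the other genes called as higher were Rps3 (0.36), Rps18 (0.32), Rpl10a (0.30), Rps27l (0.29), Rpl4 (0.26), Rps9 (0.24), Rpl3 (0.23) and Rpl7a (0.22 on the log2 scale).

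Of the members named for their role, several differed little from control in WT at 24 h. The stalk proteins Rplp0 and Rplp1, which recruit elongation factors, had differences of 0.04 and 0.10 on the log2 scale, and Rpsa, which also serves as a laminin receptor, had -0.06. The X-linked Rps4x had 0.05 ± 0.26, Rpl36a 0.03 ± 0.40 and Rpl39 -0.02 ± 0.49. Rpl10, which takes part in the last step of large-subunit maturation, Rplp2, the third stalk protein, and Rps27a, made as a fusion with ubiquitin, were at or above the median of the group, with 0.26 ± 0.17, 0.17 ± 0.14 and 0.16 ± 0.39. Each of these 3 was higher at 24 h in 4 of 4 WT cultures. None of the 9 was called in the fit of all 24 libraries, with edgeR adjusted p from 0.343 to 0.988. Rpl10 was called with the culture code as a block. These standard errors come from a spread pooled over all 6 groups, culture KO2D included, so they do not measure the spread within WT alone. In that fit, errors of this size leave room for changes larger than that of Rpl8. By culture, Rpl39 changed by 0.25, -0.17, -0.09 and -0.09 in WT2C, WT2D, WT2E and WT2F.

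**Figure D2:**
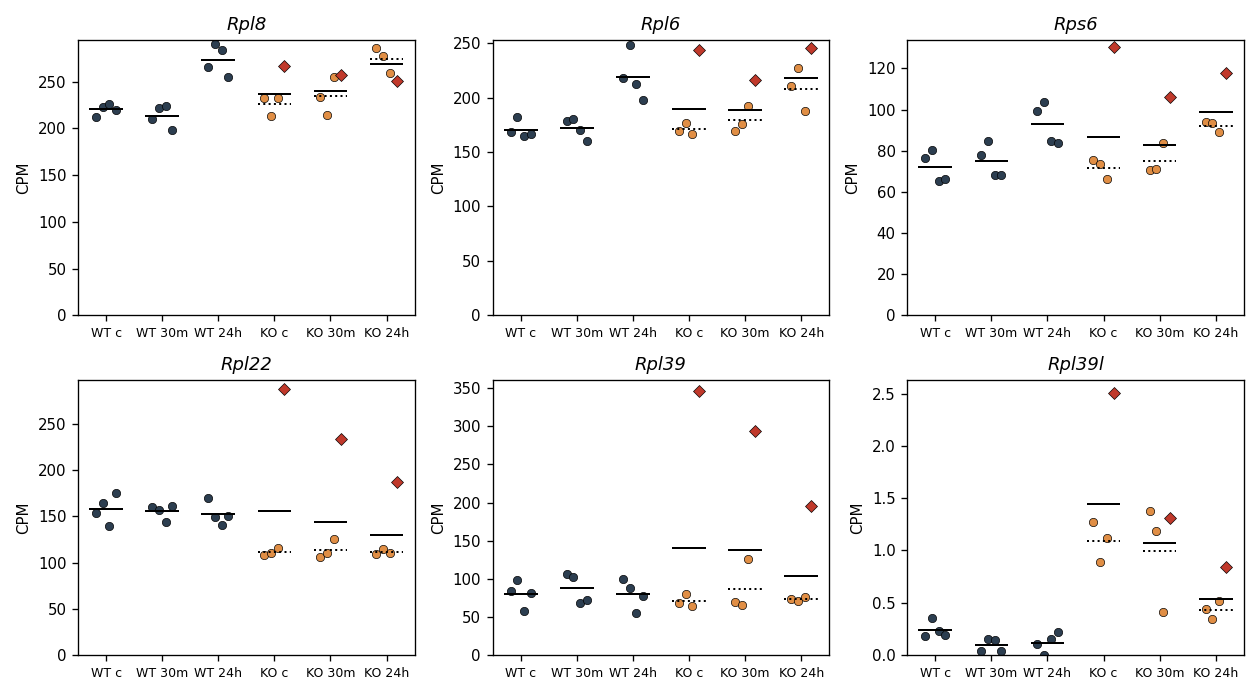
CPM (y axes, from 0) of Rpl8, Rpl6, Rps6, Rpl22, Rpl39 and Rpl39l in every library, by group on the x axes (c, control). Circles are single libraries, diamonds are culture KO2D, solid lines are means of 4 and dotted lines are KO means without KO2D. Rpl8 and Rpl6 were higher at 24 h in WT, Rpl22 was lower in KO outside KO2D, Rpl39 reached 346 CPM in the KO2D control, and Rpl39l was higher in KO.

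After 30 min of BDNF, no ribosomal protein gene was called in WT or in KO. The median log2 fold change was 0.05 in WT and 0.01 in KO. edgeR found 0 of 79 at an unadjusted p under 0.05 in both genotypes, and DESeq2 also called 0 in both. Few genes were called at this time: 0.37% of all genes in WT and 0.125% in KO. Without KO2D the KO median was 0.11, with 1 gene at an unadjusted p under 0.05 and none called, beside 0.13% of all genes. That median rested on KO 30 min replicate 3. Leaving it out as well gave -0.08.

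In KO neurons, the 24 h comparison depended on culture KO2D. With all 24 libraries no member was called by edgeR, with 3 of 79 at an unadjusted p under 0.05, beside 5.61% of all genes called. DESeq2 called 1, Rpl39l, as lower. The median log2 fold change was -0.08, with 22 genes higher and 57 lower. Without KO2D the median was 0.18, 75 genes had a higher mean and 4 a lower one, and 4 were called, all as higher, beside 3.41% of all genes called as higher. These were Rpl8 (0.29 ± 0.07, edgeR adjusted p = 0.0186), Rpl6 (0.30 ± 0.08, edgeR adjusted p = 0.0358), Rpl18 (0.32 ± 0.08, edgeR adjusted p = 0.0158) and Rps6 (0.37 ± 0.11, edgeR adjusted p = 0.0393). With KO 30 min replicate 3 left out as well, 12 were called, all as higher, beside 4.6% of all genes. Leaving out KO control replicate 4 alone gave 1 called member and a median of 0.33, in a comparison that still held the KO2D library at 24 h.

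The levels of Rpl8 in KO were 233, 214, 233 and 267 CPM in the controls and 286, 278, 259 and 251 CPM at 24 h, with KO2D last in each. The first 3 cultures all stood higher at 24 h than any of their controls. KO2D, whose 24 h library is of doubtful label, went the other way. Rps6 stood at 75.6, 73.8, 66.1 and 130 CPM in the KO controls and at 93.8, 93.7, 89.2 and 118 CPM at 24 h. Again the 3 other cultures did not overlap between the conditions, and KO2D was above all of them in both.

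Read by culture, as the log2 CPM of the 24 h library minus that of the control library, the median change of the 79 genes was 0.23, 0.15, 0.15 and 0.11 in WT2C, WT2D, WT2E and WT2F. It was 0.15, 0.19 and 0.16 in KO2A, KO2B and KO2C, and -0.47 in KO2D. The KO2D value sets the library labelled KO 24 h replicate 4 against the KO2D control. Ddx3y stood at 66.3 CPM in the former and 0.193 CPM in the latter, so whether both are 1 culture is in doubt. In the first 7 cultures 60 to 77 of the 79 genes were higher at 24 h, and in KO2D 2 were, while the median over all genes stayed between -0.02 and 0.00 in all 8. In all 7 cultures other than KO2D, 45 of the 79 genes (57.0%) were higher at 24 h, as were 17.2% of all genes tested, and none was lower in all 7. At 30 min the medians in WT were 0.10, 0.02, 0.11 and -0.04 in the same order, and in KO -0.08, -0.07, 0.43 and -0.15. The value of 0.43 was in KO2C, whose 30 min library is KO 30 min replicate 3. The libraries of a culture share a code, and each culture's changes at 30 min and 24 h share 1 control library.

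**Figure D3:**
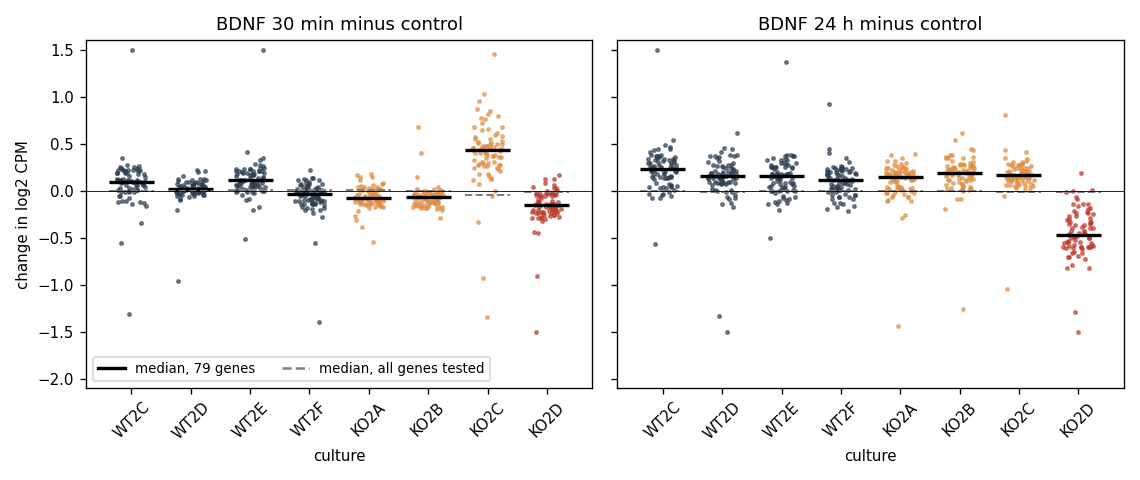
Change in log2 CPM (y axis) of each of the 79 tested genes between a BDNF library and the control library of the same culture, by culture on the x axis, at 30 min (left) and 24 h (right). Black bars are the medians of the 79 genes, dashed grey bars those of all genes tested, and points beyond 1.5 in either direction are drawn at that value. At 24 h the medians of 7 cultures lie between 0.11 and 0.23 and that of KO2D, whose 24 h library is of doubtful label, at -0.47. At 30 min KO2C stands alone at 0.43.

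The response to BDNF was not found to differ between the genotypes for any member. The difference of the 24 h response, KO minus WT, was negative for 79 of 79 genes with all libraries, with a median of -0.21. None was called by edgeR or DESeq2 and none had an unadjusted p under 0.05, beside 0.0358% of all genes called by edgeR. Without KO2D the median was 0.01, with 46 genes positive, 33 negative and none called, and again none had an unadjusted p under 0.05, beside 0.307% of all genes called. For Rpl8 the difference was then -0.02 ± 0.10, for Rpl6 -0.07 ± 0.11 and for Rps6 0.01 ± 0.14 on the log2 scale. At 30 min the median difference was -0.04 with all libraries, and no member was called by edgeR or DESeq2 or reached an unadjusted p under 0.05, beside 0.0477% of all genes called by edgeR. These tests miss small differences, and a p above the threshold does not show that the genotypes respond alike.

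KO was compared with WT within each condition, and under control conditions the sign of most ribosomal protein genes turned with culture KO2D. With all libraries, 76 of 79 genes were higher in KO under control conditions, with a median log2 fold change of 0.30. Without KO2D, 60 of 79 were lower, with a median of -0.11. Since KO2D was set aside for its high share of counts in these genes, a shift toward lower values in KO was fixed by that choice, though not its size. With all libraries the called members were Rpl39l and Rpl3l, both higher, beside 11.3% of all genes called as higher. Without KO2D, 7 members were called as lower and the same 2 as higher, beside 12.8% and 13.6% of all genes. After 30 min, Rpl39l alone was called with all libraries (14.6% of all genes called as higher), and 7 were called as lower and 2 as higher without KO2D (33.7% of all genes called in either direction). After 24 h it was again Rpl39l alone (7.09%), and without KO2D 7 were lower and 1 higher (13.5% and 13.8%). In these fits, with all libraries and without KO2D, the called members were a smaller share of the 79 than the called genes were of all genes. Of the members called as lower without KO2D, 5 of 7 under control conditions, 4 of 7 after 30 min and 0 of 7 after 24 h had a higher mean in KO when all libraries were used. Leaving out KO 30 min replicate 3 together with KO2D called 15 members under control conditions (13 lower and 2 higher), 30 after 30 min (29 lower and 1 higher) and 14 after 24 h (13 lower and 1 higher). The background in either direction was then 30.6%, 27.4% and 31.2% of all genes, with 2615, 2349 and 2701 of 17393 called as lower. After 30 min the members called in this fit were a larger share of the 79 than the called genes were of all genes. The KO 30 min libraries left out held 2.001% (KO2D) and 1.545% of their counts in these genes. Those kept, KO 30 min replicates 1 and 2, held 1.157% and 1.116%. The fit thus kept the lowest KO values, so the larger share follows in part from that choice and says nothing certain about the members.

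**Figure D4:**
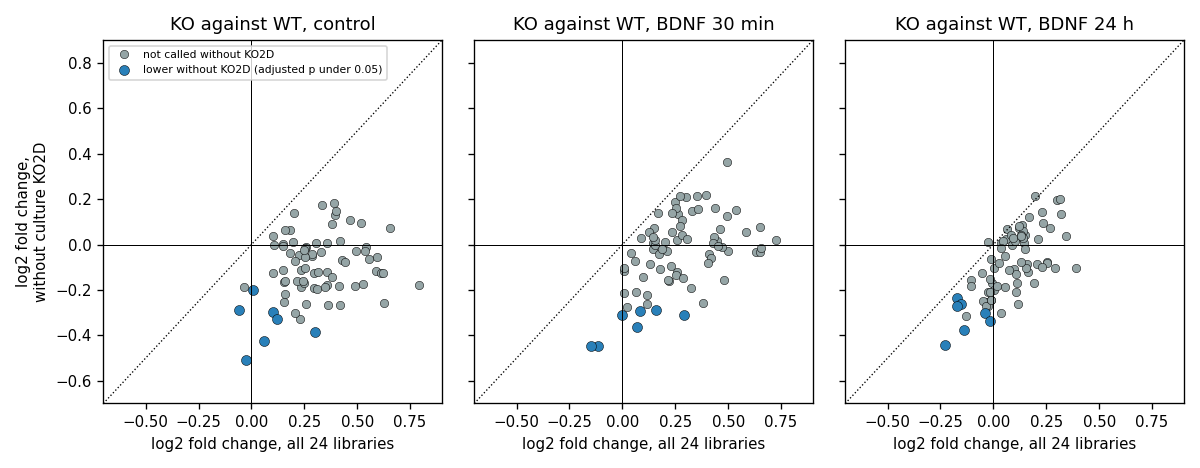
Log2 fold change of KO against WT with all 24 libraries (x axis) and without culture KO2D (y axis), in control, 30 min and 24 h neurons, each point 1 of 77 genes (Rpl39l and Rpl3l lie outside the axes). Blue points were called as lower without KO2D, grey points were not called, and the dotted line marks equal values. Most points lie below the dotted line, to the right of 0 and, under control conditions, below 0 on the y axis.

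Rpl22 was the member with the largest fall in KO once KO2D was set aside under control conditions. It is a large-subunit protein dispensable for translation in many cells, and it is known to hold down its paralogue Rpl22l1. It lies at chr4:152325742-152334071 and stood at 153, 164, 140 and 175 CPM in the WT controls and at 108, 110, 115 and 288 CPM in the KO controls. After 24 h it stood at 170, 149, 140 and 150 CPM in WT and 109, 115, 111 and 187 CPM in KO. In all 3 conditions the 3 KO libraries outside KO2D lay below all 4 WT libraries, and KO2D lay above them. Without KO2D the log2 fold change was -0.51 ± 0.08 under control conditions (edgeR adjusted p = 9.69e-05), -0.45 ± 0.08 after 30 min (edgeR adjusted p = 0.000291) and -0.44 ± 0.08 after 24 h (edgeR adjusted p = 0.000391). With all 24 libraries it was -0.03 ± 0.27 under control conditions.

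Rpl15 (chr14:18267823-18271391), a core protein of the large subunit, showed the same order of libraries. It stood at 250, 258, 232 and 262 CPM in the WT controls and at 198, 210, 208 and 347 CPM in the KO controls. The 3 KO libraries outside KO2D were below every WT library there and after 30 min and 24 h. Without KO2D its log2 fold changes were -0.29 ± 0.07 (edgeR adjusted p = 0.00591), -0.45 ± 0.07 (edgeR adjusted p = 9.64e-05) and -0.27 ± 0.07 (edgeR adjusted p = 0.00834) in the 3 conditions. Only Rpl15 and Rpl22 of the 79 genes (2.53%) had this order in all 3 conditions, against 8.67% of all genes. In single conditions the order held for 15 (control), 3 (30 min) and 15 (24 h) members, against 18.2%, 18.7% and 18.6% of all genes. Control, 30 min and 24 h libraries come from the same cultures, so the 3 conditions are not separate cultures.

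Of the small-subunit genes, Rps15a and Rps7 were called as lower without KO2D in all 3 conditions. Rps15a (chr7:118104372-118116188) stood at 208, 226, 178 and 227 CPM in the WT controls and at 151, 158, 161 and 405 CPM in the KO controls. The first 3 KO libraries were below all WT libraries, and the log2 fold change without KO2D was -0.42 ± 0.10 (edgeR adjusted p = 0.00481). Rps7 stood at 200, 212, 188 and 237 CPM in WT and at 156, 161, 164 and 550 CPM in KO, with -0.38 ± 0.12 (edgeR adjusted p = 0.0192). The others called as lower were Rps4x (-0.33), Rpsa (-0.30) and Rplp0 (-0.20) under control conditions, Rps4x (-0.31), Rps19 (-0.29) and Rps20 (-0.29) after 30 min, and Rpl12 (-0.37), Rps3 (-0.26) and Rps9 (-0.24) after 24 h. Summed astrocyte markers were lower in the same KO libraries, at 202 to 312 CPM against 420 to 615 CPM in WT, with 1 of 7 called as lower under control conditions (Slc1a2). Of the 8 neuron markers, Gad1 (1.03) and Gad2 (1.19) were higher in KO than in WT under control conditions in the 24-library fit, and Slc17a7 (-0.74), Tubb3 (-0.73) and Rbfox3 were lower. Mog (-0.98) of the oligodendrocyte lineage was lower and Csf1r (3.08) of microglia higher. After 30 min 5 of 7 astrocyte markers were called as lower, and 3 of 8 neuron markers as higher and 3 as lower. Mog, Hes5 and Dcn were also lower then, and Csf1r and Pdgfrb higher. After 24 h Slc1a2, Mbp and Mog were lower, and Syt1 and Col1a2 higher. The part of these markers in the differences of the ribosomal protein genes was not tested.

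Rpl39l was the only member called between the genotypes in all 3 conditions with all 24 libraries, and it did not depend on KO2D for its direction. It passed the filter on low counts only through the KO libraries, where it was high. Rpl39 lines the tunnel through which the new protein leaves the ribosome, and Rpl39l can take its place. The coding sequences of both genes are shown because near-identical copies could exchange reads, each 156 bases long, from GENCODE M21, with differing bases in capitals.
Rpl39: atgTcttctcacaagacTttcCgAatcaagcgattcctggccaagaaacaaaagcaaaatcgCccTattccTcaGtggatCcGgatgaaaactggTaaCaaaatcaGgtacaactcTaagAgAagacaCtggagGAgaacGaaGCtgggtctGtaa
Rpl39l: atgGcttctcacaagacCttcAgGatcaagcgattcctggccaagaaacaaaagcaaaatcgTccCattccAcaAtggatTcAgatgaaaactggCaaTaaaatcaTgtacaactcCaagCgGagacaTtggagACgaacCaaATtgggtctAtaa
They differ at 23 bases (85.3% identical), and the longest identical stretch is 38 bases. No stretch of 50 bases of the Rpl39l transcript occurs in another gene's transcript.

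In reads, Rpl39l (chr16:10170226-10174911) had 6, 16, 8 and 8 counts in the WT controls and 54, 56, 33 and 52 in the KO controls. After 30 min it had 2, 10, 6 and 2 in WT and 74, 70, 8 and 29 in KO, and after 24 h 4, 0, 6 and 10 in WT and 23, 17, 18 and 49 in KO. As CPM, which allows for depth, the controls were at 0.180, 0.352, 0.232 and 0.188 in WT and 1.27, 0.888, 1.12 and 2.50 in KO. Every KO library was above every WT library within each of the 3 conditions. The log2 fold changes were 2.56 ± 0.58 under control conditions (edgeR adjusted p = 0.00268), 3.41 ± 0.62 after 30 min (edgeR adjusted p = 0.000277) and 2.12 ± 0.61 after 24 h (edgeR adjusted p = 0.0224). Without KO2D they were 2.17 ± 0.58, 3.32 ± 0.61 and 1.82 ± 0.62, all still called. The 24 h call was lost without WT 24 h replicate 1 (edgeR adjusted p = 0.0677), WT 24 h replicate 2 (0.0538) or KO 24 h replicate 4 (0.0516). These are low counts, and a few reads moved single values. In WT only control replicate 2, with 16 counts, had more than 10, so the gene entered the test through the genotype in which it was high. Rpl39 itself stood at 58.4 to 98.7 CPM in the WT controls and 64.9 to 80.5 CPM in the KO controls without KO2D, so its ranges overlapped.

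Within KO, Rpl39l was at 0.440, 0.342, 0.518 and 0.838 CPM after 24 h of BDNF, below all 4 KO controls. The log2 fold change was -1.41 ± 0.54, which edgeR did not call (adjusted p = 0.141) and DESeq2 did. Rpl3l (chr17:24727820-24736143) also had more counts in the KO controls, 32, 23, 13 and 24, than in WT, 0, 12, 5 and 4. Its log2 fold change was 2.34 ± 0.84 (edgeR adjusted p = 0.0488). The call was lost without WT control replicate 1, 3 or 4 or KO control replicate 1, 3 or 4, with adjusted p up to 0.126 and the count of called members then at 1. After 30 min and 24 h it was not called with all libraries, and KO 30 min replicate 4 had 0 counts. Rps27l, a p53-responsive paralogue of Rps27, stood at 13.1 to 14.3 CPM in the WT controls and 13.5 to 15.3 CPM in KO without KO2D, and at 43.1 CPM in KO2D.

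Within culture KO2D nearly every ribosomal protein gene was high. Against the mean log2 CPM of the 3 other KO libraries of its group, the median of the 79 genes was 2.26-fold under control conditions, 1.91-fold after 30 min and 1.53-fold after 24 h. All 79 genes were higher in the KO2D control than in each of the other 3, and 74 and 75 were after 30 min and 24 h. The excess was uneven among members. Rpl39 was 4.86-fold and Rps27 4.42-fold higher under control conditions, and Rpl26 3.71-fold and Rps27a 3.67-fold, whereas Rpl8 and Rpl27 were each 1.18-fold, Rpl18 1.27-fold and Rpl7a 1.31-fold higher. Rpl39 stood at 346 CPM against 68.8, 80.5 and 64.9 CPM, and Rps27 at 366 CPM against 73.6, 82.7 and 92.9 CPM. Rpl8 and Rpl18, called at 24 h in WT, were thus among the members that differed least between this culture and the others. The 24-library fit takes the spread of each gene from all libraries, KO2D included, so members with a small excess there pass more easily. Which members it called in WT therefore does not rank them by their rise.

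Genes with little exon sequence were higher as a whole in that control library. Lengths here sum all annotated exons of a gene and exceed those of single transcripts. Other nuclear protein-coding genes with under 1000 bases of exon had a median of 1.68-fold (n = 252), those of 1000 to 2000 bases 1.24-fold, those of 2000 to 4000 bases 1.04-fold and longer ones 0.886-fold. The ribosomal protein genes were at 2.26-fold, 2.13-fold, 2.36-fold and 2.44-fold in the same 4 classes, with 11, 33, 29 and 6 members. The part of transcript length in the excess was not tested. By gene group, mitochondrially encoded genes had a median of 2.89-fold, nuclear genes of oxidative phosphorylation 1.66-fold, mitochondrial ribosomal proteins 1.40-fold and other TOP mRNA genes 1.34-fold. Ribosome biogenesis genes (0.962-fold) and mTORC1 pathway genes (0.954-fold) were near all genes tested (0.978-fold). In KO 30 min replicate 3 the members had a median of 1.44-fold over KO 30 min replicates 1 and 2, with 75 of 79 higher. The part of depth, RNA quality and mitochondrial content in the levels of either library was not tested.

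**Figure D5:**
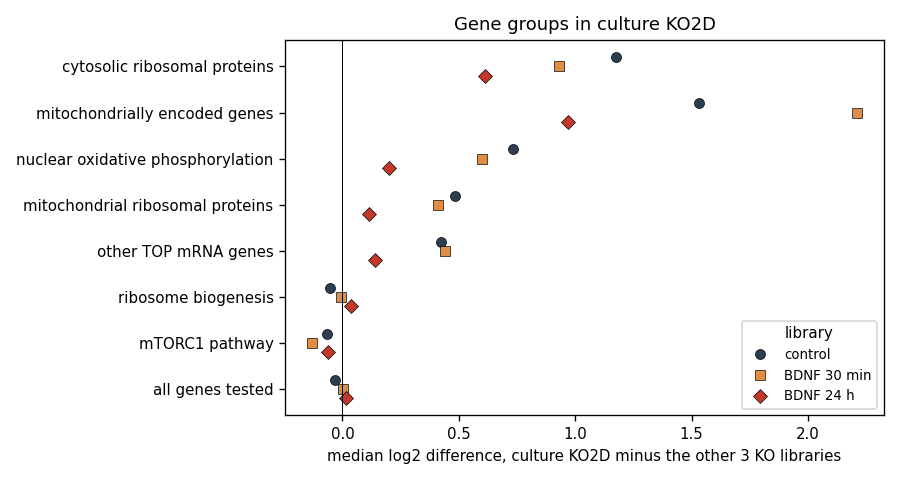
Median log2 difference between the library of culture KO2D and the mean of the 3 other KO libraries of its group (x axis) for 8 sets of genes (y axis), with 1 marker for each of control, 30 min and 24 h. Cytosolic ribosomal proteins lie at 1.18, 0.93 and 0.61, mitochondrially encoded genes at 1.53, 2.21 and 0.97, and all genes tested near 0.

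Genes that act before or beside the ribosomal proteins were read from lists chosen by function. Of the ribosome biogenesis genes, 21 of 57 rose in WT at 24 h, none fell and 36 were not called, with a median log2 fold change of 0.31, beside 9.55% of all genes called as higher. Without KO2D, 36 were higher and 1 lower, beside 14.2% of all genes called as higher. Among them were Ltv1, an assembly factor of the small subunit (0.87 ± 0.17, edgeR adjusted p = 0.000644), and Ddx21, a nucleolar RNA helicase (0.81 ± 0.12, edgeR adjusted p = 7.71e-05). Polr1e, a subunit of RNA polymerase I, rose by 0.79 and Efl1, which helps release a block on new large subunits, by 0.68. In KO 7 of 57 rose and none fell, beside 2.91% of all genes called as higher, with Ddx21 at 0.53, Polr1e at 0.53 and Efl1 at 0.51. Whether the genotypes differ in this list is not shown by these counts: the difference of the 24 h response was called by edgeR for 0 of the 57 without KO2D, with 6 at an unadjusted p under 0.05. Of the other TOP mRNA genes 3 of 17 rose in WT, the intermediate filament gene Vim (1.52), the initiation factor gene Eif3l (0.30) and the RNA-binding protein gene Hnrnpa1 (0.30), and the same 3 rose in KO. Of all genes 9.55% were called as higher in WT and 2.91% in KO.

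Of the mTORC1 pathway genes 12 of 39 rose and 3 fell in WT at 24 h, with a median log2 fold change of 0.10. Of all genes 9.55% were called as higher and 9.13% as lower. The inhibitors of translation or of mTORC1 moved in both directions, with Sesn2 (1.19) and Eif4ebp1 (1.12) higher and Pdcd4 (-1.11) and Sesn1 (-0.71) lower. In KO 1 rose and 2 fell, Pdcd4 (-0.73) and Sesn1 (-0.46), beside 2.91% of all genes called as higher and 2.7% as lower. Of the mitochondrial ribosomal protein genes, 1 of 77 was higher in WT at 24 h and 2 were lower, beside the same 9.55% and 9.13% of all genes. Without KO2D 13 were higher and 2 lower, beside 14.2% of all genes called as higher and 13.7% as lower. Under control conditions and without KO2D, 52 of 75 nuclear oxidative phosphorylation genes and 22 of 77 mitochondrial ribosomal protein genes were higher in KO (median 0.41 and 0.20), with 0 and 1 lower. Of all genes 13.6% were called as higher and 12.8% as lower, and of the 79 cytosolic genes 7 were lower and 2 higher.

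Of the ribosomal genes that the symbol rule leaves out, 8 passed the filter, and 1 was called in the 24-library fit. This was Rpl7l1, higher in KO under control conditions (0.25, edgeR adjusted p = 0.0499) and after 30 min (0.29, edgeR adjusted p = 0.0176). Rpl22l1 and Rack1 were chosen after their values at 24 h were seen. Rpl22l1, the paralogue of Rpl22, stood at 32.7, 35.5, 27.6 and 32.0 CPM in the WT controls and at 65.0, 70.6, 55.4 and 73.2 CPM after 24 h. No library overlapped, yet the 24-library fit did not call it (1.05 ± 0.45, edgeR adjusted p = 0.114), and without KO2D it did (1.05 ± 0.11, edgeR adjusted p = 8.6e-07). In KO it went from 35.1, 35.3, 39.6 and 104 CPM to 61.3, 61.4, 66.4 and 136 CPM, with KO2D last, and 0.79 ± 0.13 without that culture (edgeR adjusted p = 0.000633). In the controls Rpl22l1 was not called between the genotypes without KO2D (0.20, edgeR adjusted p = 0.251), while Rpl22 was lower in KO. Rack1, a scaffold protein on the head of the small subunit, went from 284, 284, 290 and 286 CPM to 362, 398, 360 and 337 CPM in WT. Its change was 0.35 ± 0.12 with all libraries (edgeR adjusted p = 0.0538) and 0.35 ± 0.06 without KO2D (edgeR adjusted p = 0.000218). In KO without KO2D it rose by 0.35 as well and was lower than in WT by 0.18 to 0.19 on the log2 scale in all 3 conditions.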

How the data were processed

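Stranded TruSeq mRNA libraries were made from column-purified RNA, per the labels' protocols. For the 24 libraries the authors deposited unnormalised counts, whole numbers of reads for each gene. The submitters' processing notes name STAR 2.7.9a with mm10, edgeR 3.40.2, limma 3.54.2 and DESeq2 1.38.3. Which program counted the reads, on which strand, with which annotation and with what rule for shared reads is not stated. Identifiers without version were named from GENCODE M21 (98.8% of genes, with 0.0662% of counts in unnamed rows). Start sequences come from RefSeq on GRCm38.p6.

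The test was that of edgeR 4.0.16, run in R 4.3.3. filterByExpr (minimum count 10, minimum total 15) kept 16777 genes, or 16915 without culture KO2D. TMM factors ran from 0.824 to 1.07, and 1 quasi-likelihood model of 6 group means left 18 residual degrees of freedom, with a common biological variation (BCV) of 23.5%. Adjusted p-values are Benjamini-Hochberg values over all genes tested within each of the 9 comparisons, and each SE is the absolute log2 change over the root of the F statistic. CPM use TMM factors, and log2 CPM a prior count of 2. Depth was 19780486 to 62135270 counts per library. The exact 95% interval on a share of genes covers counting error only. The culture code as a block, DESeq2 1.42.0, other scalings, no filter, smaller sets of libraries and leaving out each library were also tried. The edgeR fit was tested on simulated counts for 1 comparison, WT 24 h against control.

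The members, the lists and the rule for named genes were chosen with earlier results of these data known. The rule names, for each comparison, up to 8 called members of largest rise and of largest fall, the stalk, X-linked and paralogous members with Rpsa, Rps6 and Rps27a, the 5 highest and 5 lowest levels per kb, and up to 4 called genes of each other list. Rpl22l1, Rack1, cell type markers and members named for their excess in culture KO2D, for shared sequence or in the list of groups that did not overlap were chosen after their values were seen. Sequences of members on chromosome 18 are not reported here.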

Additional observations from a re-analysis of the deposited data

Results flagged for a closer look

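Each of 28 quantities was examined for a highest or lowest library far from the rest of its group of 4. Of 168 groups, 43 (25.6%) had one. The quantities share libraries and move together, and KO2D was known beforehand to be high, so this share cannot be compared with chance. Of the 43, 41 were libraries of culture KO2D, and their causes were not tested. In the KO2D control (KO control replicate 4) the share of counts was high for all members (2.349%), small-subunit members (1.018%) and large-subunit members (1.332%). The same library was highest for Rpsa (1028 CPM), Rplp1 (580.6), Rplp0 (573.6), Rps7 (549.5), Rps27a (548.3), Rps4x (506.3), Rpl12 (431.8), Rps15a (405.3), Rps27 (365.9), Rpl10 (361.1), Rpl15 (346.8), Rpl39 (345.9), Rpl22 (287.9), Rpl6 (243.8), Rpl36a (182.6), Rps6 (130.5), Rpl22l1 (104.2) and Rps27l (43.12 CPM). After 30 min the KO2D library was far above the others for Rack1 (362.5 CPM), Rpl22 (233.5), Rpl22l1 (225.4) and Rps27l (46.89 CPM).

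In the library labelled KO 24 h replicate 4, the shares of all members (1.899%), small-subunit members (0.8035%) and large-subunit members (1.096%) were high. It was also far above the rest of its group for Rpsa (725.0 CPM), Rps4x (366.6), Rps7 (362.0), Rps27a (347.9), Rpl12 (335.6), Rps15a (306.7), Rpl15 (282.0), Rps27 (206.8), Rpl39 (196.0), Rpl22 (186.6), Rpl22l1 (136.5), Rpl36a (120.8) and Rps6 (118.0 CPM).

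Only 2 such values lay in WT, both low: Rplp2 at 63.56 CPM in WT 30 min replicate 1 and Rps7 at 199.8 CPM in WT 24 h replicate 3.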

How the results depend on the processing

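Rpl8, Rpl6, Rpl18, Rpl39l and Rpl3l, called with all libraries, kept their direction in every alternative run. Of the members called as lower in KO without KO2D, 5 under control conditions and 4 after 30 min had the opposite sign with all libraries. The number of members called for WT at 24 h, 3 with all libraries, was 14 with the culture code as a replicate block, 14 with only the groups compared, 13 without culture KO2D, 23 without KO2D and KO 30 min replicate 3, 0 in the libraries of set 2 alone, 17 in those of set 1 alone (chosen after the data were seen) and 1 to 3 with 1 library left out. For KO at 24 h (0) it was 2 with the replicate block, 4 without KO2D, 12 without both, 1 with DESeq2 and 0 to 1 with 1 library left out. For KO against WT under control conditions (2) it was 4 with the replicate block, 1 with library totals without factors, 1 with no filter, 1 with library set as a term, 9 without KO2D, 15 without both, 0 in set 2 alone and 1 to 2 with 1 library left out. After 30 min (1) it was 5 with the replicate block, 9 without KO2D, 30 without both and 1 to 3 with 1 library left out. After 24 h (1) it was 8 without KO2D, 14 without both, 0 in set 2 alone and 0 to 1 with 1 library left out. For WT at 24 h, all genes called as higher were 15.7% with only the groups compared and 9.65% in set 1 alone. In either direction they were 32.3% and 20.1%. For KO at 24 h the share in either direction was 16.9% with the block, 7.31% without KO2D and 9.43% without both. For KO against WT it was, in that order, 25.2%, 26.4% and 30.6% under control conditions and 32.4%, 33.7% and 27.4% after 30 min. After 24 h it was 27.3% without KO2D and 31.2% without both. The block called 15.9% of all genes as higher in WT at 24 h, and same-numbered libraries of a genotype deviated together with correlations of 0.0464 to 0.462, over 0.1 in 22 of 24 pairs, and 24 of 24 libraries correlated best with their own number. The labels give these libraries 1 code without saying what it marks, so the pairing rests on the data. With the block, Rps6 (edgeR adjusted p = 0.00173), Rpl10 (0.0315), Rpl22l1 (6.15e-05) and Rack1 (0.000759) were also called in WT at 24 h. The set is the number that the names of the control libraries carry, and the BDNF libraries, whose names lack it, were given that of their code. What the number marks is not stated. Set 1 holds WT replicates 1 and 2 and KO replicate 1, and set 2 the rest, KO2D included, so set and genotype are unbalanced. For settings whose share of all genes is not given here, set 2 alone among them, the counts of members cannot be read against a background. The causes of these shifts were not tested.

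With 1 library left out, the median log2 fold change of the members ran from -0.25 to 0.33 for KO at 24 h, from -0.32 to 0.35 for KO at 30 min and from -0.12 to 0.37 for KO against WT under control conditions. Left out of the total, mitochondrially encoded genes moved the WT 30 min share from 1.329% to 1.406%. The share of genes with a pyrimidine run, 56.7%, was 28.3% for runs of 10 within 5 bases, 76.7% for runs of 5 within 10 bases and 36.7% for runs of 10 within 10 bases. Rpl39l was called in 19 of 19 alternatives after 30 min, 18 of 19 under control conditions and 15 of 19 after 24 h. It passed the filter only through the KO libraries where it was high, and the alternatives mostly reuse the same libraries, so these counts are not separate support. Rpl8 was called in 19 of 20, Rpl6 in 15 of 20, Rpl18 in 13 of 20 and Rpl3l in 9 of 19. Depth limits Rpl39l and Rpl3l, which had at most 74 and 45 counts per library.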
